A study of Mus musculus with 8 samples.

Results

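Transcripts of 42 genes of glucose use were examined in interscapular brown fat, the depot that burns fuel to make heat. The set holds the glucose transporters Slc2a1 and Slc2a4, the enzymes of glycolysis, the pyruvate dehydrogenase complex with its kinases and phosphatase, the enzymes of glycogen turnover and the enzymes of the pentose phosphate route. Members were chosen by gene symbol, which matched 43 of the 54532 genes in the count table, because Aldoa is listed under 2 gene IDs. The 4 genes Eno3, Pgam2, Pygm and Pfkm encode the isoforms typical of skeletal muscle and were set against the other 39 entries. RNA was sequenced from 8 male mice, 7 months old, fed normal chow and kept at 4 °C for 24 h. All 8 carried the floxed Pparg gene. By the labels, 4 of them also carried Myl1-Cre, and the 4 without Cre are the control. The product of Pparg is a nuclear receptor needed to form fat cells. Myl1-Cre acts in cells that use or have used Myl1, a myosin light chain gene, which includes skeletal muscle as well as the progenitor cells the series is about. Whether and in which cells Pparg was deleted was not analysed here.

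Glycolysis splits glucose into pyruvate, and several of its steps can be run by isoforms that differ between tissues. Glycogen phosphorylase releases stored glucose, and the pentose phosphate route makes NADPH for fatty acid synthesis. In brown fat, cold raises glucose uptake, which feeds both lipid synthesis and the mitochondria. Skeletal muscle, which lies next to this depot, relies on its own forms of enolase (Eno3), phosphoglycerate mutase (Pgam2), glycogen phosphorylase (Pygm) and phosphofructokinase (Pfkm).

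The libraries held 12226608 to 19268945 counts, and the 43 entries together took 2.39 to 3.21% of them. Levels are given as CPM, the count scaled by the library total after TMM adjustment, and a gene with no count could lie at up to 0.156 to 0.245 CPM depending on the library, which covers counting error only. Pparg itself went against the label, with 197 ± 7.98 CPM in the control and 283 ± 25.1 CPM in the other group (SD, n = 4 each), which is therefore called labelled knockout. Its libraries did not overlap, at 185 to 201 CPM in the control and 267 to 320 CPM in the labelled knockout. The log2 fold change of Pparg (labelled knockout over control) was 0.52 ± 0.09 (SE), with an adjusted p of 0.0328 in the edgeR test below. Such a count takes in the whole gene and is no check of the floxed part alone. Markers of brown and general fat cells were present in every library, and 12 of them summed to 28510 to 34680 CPM in the control and 23040 to 30190 CPM in the labelled knockout. Of these 12, 9 had a log2 fold change (labelled knockout over control) below 0, with a median of -0.27 over the 12, 0 passed the edgeR test below and 3 had an unadjusted p under 0.05, all lower. Elovl3 (-0.95), a fatty acid elongase gene, and Plin1 (-0.50), which coats lipid droplets, were lower without overlap. Lep (0.40), Cox7a1 (0.17) and Cox8b (0.13) lay above 0. Of all genes tested 3.89% were lower without overlap, and 7.12% were lower at an unadjusted p under 0.05. Skeletal muscle markers were present too. Their 20 genes, none of them a member of the set, summed to 6363, 17550, 11270 and 12550 CPM in controls 1 to 4 and to 22280, 22790, 21730 and 12370 CPM in labelled knockouts 1 to 4. All 20 had a log2 fold change above 0, with a median of 0.70. None of the 20 was at 0 in any library. In edgeR 0 of the 20 passed, and 13 were higher at an unadjusted p under 0.05, against 8.05% of all genes tested. Control 1 therefore had the least muscle RNA, and labelled knockout 4 stood with the control libraries. Whole tissue was sequenced, so fewer cells of a type and less RNA per cell cannot be told apart.

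No member of the set passed the test between the groups. Of the 43 entries 42 were abundant enough to test, and 0 had an adjusted p under 0.05 in edgeR's quasi-likelihood test, where 53 of all 13756 genes passed (0.385%), 0.291% of them higher and 0.0945% lower. DESeq2 called 3 members, where it called 2.79% of all genes, and limma-voom called 0 members and 0.385% of all genes. At an unadjusted p under 0.05, 7 members lay higher and 7 lower in the labelled knockout, against 8.05% and 7.12% of all genes tested. All 4 muscle-type members had a log2 fold change above 0, with a median of 0.64, while 25 of the 38 other entries tested lay below 0, with a median of -0.13, and 13 lay above 0, among them Ugp2 at 0.63. The difference between these 2 groups of members was not tested. With the mean log2 level of the 20 muscle markers as a covariate the medians were 0.15 and 0.10. Over all genes tested the median was 0.00 and 50.3% lay above 0. The part of fat cell RNA in the lower median of the other entries was not tested. That median was -0.04 without labelled knockout 2, -0.06 without control 1, -0.07 without control 4 and -0.21 without labelled knockout 4.

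**Figure D1:**
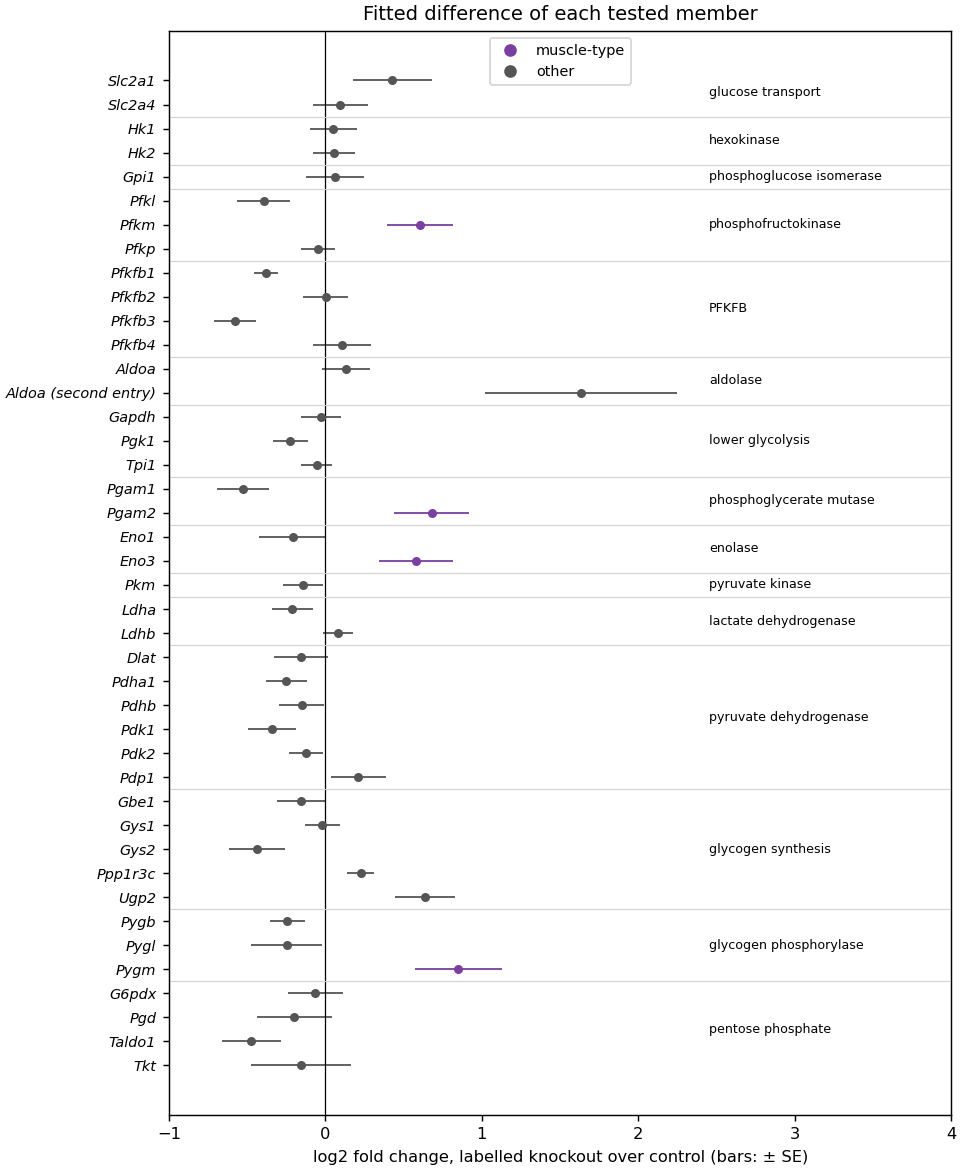
Fitted log2 fold changes of the 42 tested entries on the x axis (labelled knockout over control, 4 libraries each), with bars of ± 1 SE, grouped by step; muscle-type isoforms are in purple. The 4 purple points lie between 0.58 and 0.85, and the widest bar belongs to the second Aldoa entry, which rests on 2 to 28 counts per library.

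The muscle-type isoforms are described first. Eno3 (ENSMUSG00000060600, GRCm38 chromosome 11, 70657202 to 70662513, plus strand) encodes beta-enolase, which makes phosphoenolpyruvate in muscle. It was at 179, 322, 235 and 344 CPM in controls 1 to 4 and at 549, 406, 396 and 263 CPM in labelled knockouts 1 to 4. The groups overlapped, since labelled knockout 4 lay below controls 2 and 4. Its log2 fold change was 0.58 ± 0.24 (SE) with an adjusted p of 0.282 in edgeR.

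Pgam2 (ENSMUSG00000020475, chromosome 11, 5801640 to 5803733, minus strand) encodes the muscle subunit of phosphoglycerate mutase. It was at 63.2, 92.8, 68.1 and 112 CPM in the control libraries and at 188, 127, 140 and 83.6 CPM in the labelled knockout. Labelled knockouts 1 to 3 lay above every control and labelled knockout 4 lay among them. Its log2 fold change was 0.68 ± 0.24 (SE), and the adjusted p was 0.229 in edgeR.

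Pygm (ENSMUSG00000032648, chromosome 19, 6384399 to 6398459, plus strand) encodes muscle glycogen phosphorylase, the enzyme missing in McArdle disease. It was at 142, 407, 250 and 302 CPM in the control and at 597, 547, 517 and 320 CPM in the labelled knockout. Control 1 was lowest by a wide margin, and labelled knockout 4 lay between controls 4 and 2. Its log2 fold change of 0.85 ± 0.28 (SE) was the largest of these 4, with an adjusted p of 0.205 in edgeR.

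Pfkm (ENSMUSG00000033065, chromosome 15, 98092589 to 98132451, plus strand) encodes the muscle subunit of phosphofructokinase, the committing step of glycolysis. It was at 202, 328, 219 and 321 CPM in the control and at 470, 427, 471 and 258 CPM in the labelled knockout. The order of the libraries was much like that of the other muscle isoforms, with labelled knockout 4 inside the control range. For Pfkm it was 0.61 ± 0.21 (SE), with an adjusted p of 0.229 in edgeR. Some exon bases of Pfkm overlap those of Senp1 on the opposite strand and of Gm26513 on the same strand, and 8.83% of its 50-base stretches occur in transcripts of another gene, so its value is less certain than those of Eno3 and Pgam2, which share none.

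These 4 genes followed the muscle markers from library to library. Control 1 was lowest in all 4 of them and in 18 of the 20 markers. Summed over the 4 genes, the level was 9.22, 6.55, 6.85 and 8.60% of the summed muscle markers in controls 1 to 4 and 8.09, 6.62, 7.01 and 7.47% in labelled knockouts 1 to 4, so that the groups overlapped. With the mean log2 level of the 20 markers as a covariate, the log2 fold changes were 0.06 for Eno3, 0.11 for Pfkm, 0.18 for Pygm and 0.20 for Pgam2, with adjusted p from 0.658 to 0.947 in edgeR. The marker score itself ran from 7.88 to 9.27 in the control and from 8.71 to 9.63 in the labelled knockout. Score and genotype thus vary partly together, and this fit cannot tell them apart. The part of muscle RNA in these differences was not tested.

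**Figure D2:**
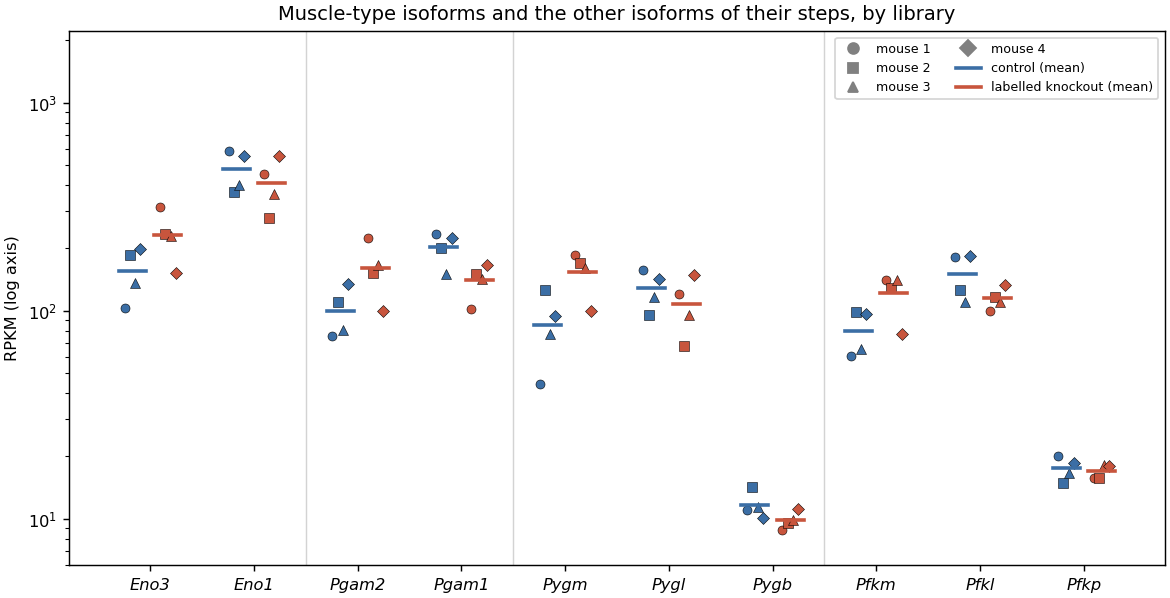
Level of 10 isoforms on a log axis in RPKM (CPM divided by the exon length in kilobases), 1 point per library and 1 symbol per mouse, with lines at the arithmetic mean of 4 libraries; grey lines part the 4 steps. Eno3, Pgam2, Pygm and Pfkm are lowest in control 1, and labelled knockout 4 lies within the control range of each.

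The upstream sequences of Eno3, Pgam2 and Pygm are shown because these genes ran together across the libraries and have a single listed start each. RefSeq promoter windows on GRCm38.p6 were found for 39 of the 42 genes, in 60 windows with several for some genes, and the 250 bases before the start were searched on both strands. Capitals mark matches to CAGCTG, the E-box form favoured by MyoD, or to ACGTG, the core bound by HIF, whose 2 orientations overlap where CACGTG occurs. All are given 5′ to 3′ on the strand of the gene.
Eno3, chr11:70656926-70657175, plus strand: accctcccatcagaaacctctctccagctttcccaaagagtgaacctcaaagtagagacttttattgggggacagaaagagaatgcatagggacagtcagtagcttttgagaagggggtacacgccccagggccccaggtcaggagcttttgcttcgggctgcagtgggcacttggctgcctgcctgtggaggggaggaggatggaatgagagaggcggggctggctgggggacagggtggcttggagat
Pgam2, chr11:5803797-5804046, minus strand: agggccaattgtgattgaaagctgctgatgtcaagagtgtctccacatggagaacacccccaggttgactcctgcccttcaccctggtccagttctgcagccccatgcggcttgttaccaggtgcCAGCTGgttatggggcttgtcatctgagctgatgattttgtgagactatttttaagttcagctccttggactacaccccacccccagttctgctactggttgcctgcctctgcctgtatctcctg
Pygm, chr19:6384158-6384407, plus strand: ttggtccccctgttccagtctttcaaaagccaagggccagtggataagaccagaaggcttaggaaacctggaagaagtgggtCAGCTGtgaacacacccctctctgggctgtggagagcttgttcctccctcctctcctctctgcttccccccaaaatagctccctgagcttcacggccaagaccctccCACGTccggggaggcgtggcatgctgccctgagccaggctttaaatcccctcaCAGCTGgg
Pgam2 held 1 CAGCTG, Pygm held 2 and 1 match to the HIF core on the other strand, and no match lay in this window of Eno3. The RefSeq starts differ from the gene positions given above. Those of Eno3 and Pgam2 lie upstream of the gene, and that of Pygm lies inside it, so the CAGCTG nearest the start of Pygm falls within the gene as annotated. CAGCTG occurred in 10 of the 60 windows of the set (16.7%) and in 12.5% of the 12999 windows of genes tested. ACGTG occurred in 21 windows (35%), among them those of Pgk1, Ldha, Aldoa, Pkm and Slc2a1, and in 21.3% of the windows of genes tested. TATAAA, searched in the same way, was in 1 window, that of Pfkfb1 (1.67% against 6.78%). Windows of 1 gene can overlap, and a match describes letters only.

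The other isoforms of the same steps lay lower or level. Eno1, the widely expressed alpha-enolase, was at 3133, 1991, 2162 and 2971 CPM in the control and at 2449, 1504, 1960 and 2961 CPM in the labelled knockout. Both groups spanned a similar range, and labelled knockout 2 was lowest. For Eno1 the log2 fold change was -0.21 ± 0.21 (SE), and the adjusted p was 0.678 in edgeR. Reads of Eno1 can be shared with other copies, since 26% of its 50-base stretches occur in transcripts of 23 other genes.

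Pgam1, the widely expressed mutase, was at 464, 398, 297 and 442 CPM in the control and at 203, 298, 281 and 330 CPM in the labelled knockout. Only control 3 lay within the range of the labelled knockout. Pgam1 lay at -0.53 ± 0.17 (SE) on the log2 fold change scale, with an adjusted p of 0.193 in edgeR, and 36.2% of its 50-base stretches occur in other genes' transcripts, so its value is uncertain. Pygl, the liver form of phosphorylase, was at 1087, 658, 803 and 983 CPM in the control and at 832, 464, 659 and 1020 CPM in the labelled knockout, with wide overlap. Its log2 fold change was -0.25 ± 0.23 (SE), with an adjusted p of 0.642 in edgeR. Pygb, the brain form, was at 52.8, 68.5, 55.1 and 48.6 CPM against 42.7, 46.0, 47.5 and 53.8 CPM, and had a log2 fold change of -0.24 ± 0.11 (SE). The adjusted p for Pygb was 0.336 in edgeR.

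Pfkl, the liver subunit of phosphofructokinase, was at 1214, 841, 738 and 1225 CPM in the control and at 666, 777, 733 and 882 CPM in the labelled knockout. Controls 1 and 4 stood above all other libraries. Its log2 fold change was -0.39 ± 0.17 (SE) with an adjusted p of 0.307 in edgeR. Pfkp, the platelet subunit, was at 267, 198, 223 and 248 CPM against 211, 212, 242 and 241 CPM, with a log2 fold change of -0.05 ± 0.11 (SE) that turned to 0.02 without control 1. Exons of Pfkp overlap those of Pitrm1 on the opposite strand, so its value is uncertain. With the muscle marker score as a covariate Eno1, Pygl and Pfkp lay above 0, at 0.16, 0.17 and 0.12, and Pfkl at -0.16, Pgam1 at -0.37 and Pygb at -0.27.

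Per exon length, the widely expressed or liver form stood above the muscle form in the control tissue at 3 of these steps. The ratio of Eno3 to Eno1 per exon length was 0.177, 0.5, 0.337 and 0.358 in controls 1 to 4 and 0.693, 0.836, 0.625 and 0.275 in labelled knockouts 1 to 4, so Eno1 was the more abundant form in all 8 libraries. The ratio of Pgam2 to Pgam1 was 0.322, 0.550, 0.541 and 0.601 in the control and 2.19, 1.01, 1.17 and 0.598 in the labelled knockout, where labelled knockout 4 fell within the control range. For Pfkm over Pfkl the ratios ran from 0.333 to 0.779 in the control and from 0.584 to 1.41 in the labelled knockout. Pygm over Pygl ran from 0.281 to 1.32 and from 0.671 to 2.53. Labelled knockouts 1 to 3 had the highest ratio in each of these 4 pairs. Exon length here takes in every annotated exon of a gene (6.895 kb for Pygl, 3.218 kb for Pygm), and the transcripts present may be shorter. Before division by length, the highest log2 ratio in any library was -0.106 for Pgam2 over Pgam1 and -0.504 for Pfkm over Pfkl. For Pygm over Pygl it was 0.237. Which form is the more abundant in these 3 pairs thus depends on the length used.

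The differences between the groups in these ratios did not pass. On the log2 scale Pgam2 over Pgam1 differed by 1.19, from a mean of -2.27 ± 0.41 in the control to -1.08 ± 0.77 in the labelled knockout (SD, n = 4 each), and the exact permutation test, two-sided as in all ratios, gave p = 0.0571. Pygm over Pygl also differed by 1.19 and Pygm over Pygb by 1.14, both with an exact permutation p of 0.0571. Pfkm over Pfkl differed by 0.96 (exact p = 0.0857), Eno3 over Eno1 by 0.80 (exact p = 0.143) and Pfkm over Pfkp by 0.64 (exact p = 0.114). Adjusted over the 10 ratios compared, the lowest p was 0.143. With 4 libraries a group no exact p can fall below 0.0286. After adjustment over 10 ratios a single ratio at that value could not pass, so not passing decides nothing about any 1 ratio. All 10 ratios overlapped between the groups. The value of Pgam2 over Pgam1 also carries the shared reads of Pgam1.

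**Figure D3:**
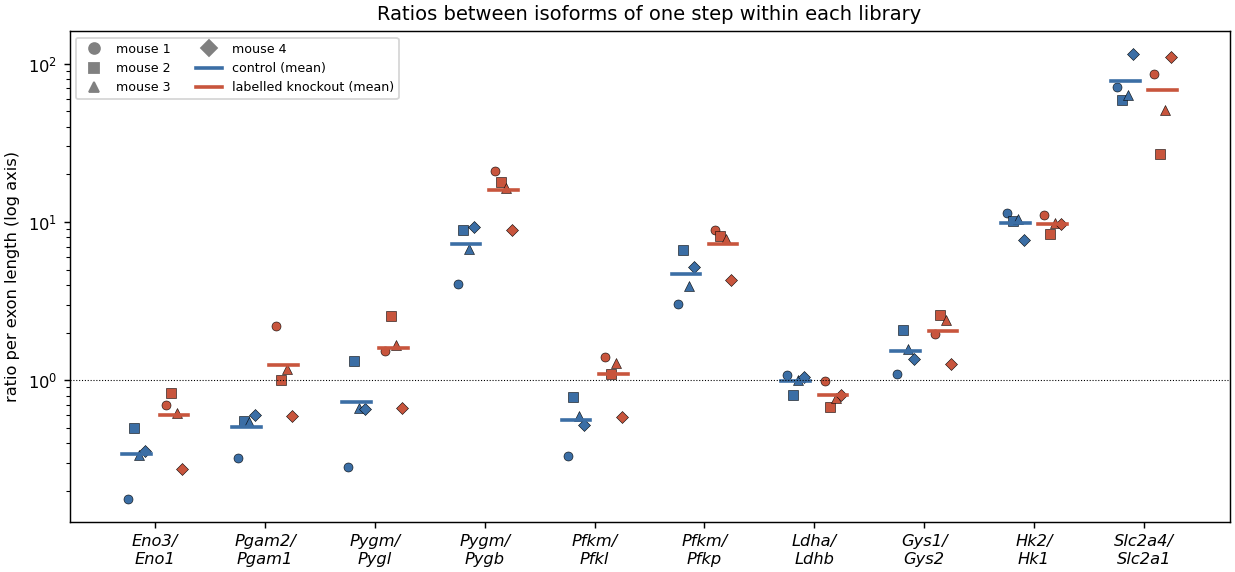
Ratio of paired isoforms per exon length in each library on a log axis, 1 symbol per mouse, with lines at the arithmetic mean of 4 libraries and a dotted line at a ratio of 1. In the first 6 pairs control 1 is lowest among the controls and labelled knockout 4 is lowest in its group, and in every pair the groups overlap.

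Glucose enters fat and muscle cells mainly through the insulin-regulated transporter encoded by Slc2a4. It stood at 187 ± 36.1 RPKM (CPM per kilobase of exon) over the 8 libraries (SD), against 2.87 ± 1.00 RPKM for Slc2a1, the widely expressed transporter, a ratio of 26.8 to 116. Slc2a4 was at 628 ± 90.4 CPM in the control and 670 ± 165 CPM in the labelled knockout, a difference within the spread, and Slc2a1 at 8.56 ± 1.82 and 11.5 ± 4.43 CPM. Hk2, the hexokinase form of insulin-responsive tissues, exceeded Hk1 by 7.69 to 11.4 times per exon length. Hk2 was at 462 ± 61.1 CPM in the control and 480 ± 73.5 CPM in the labelled knockout, and Hk1 at 68.0 ± 15.7 and 70.4 ± 8.84 CPM. The exact permutation p was 0.571 for the ratio of the transporters and 0.914 for that of the hexokinases, and the latter difference was -0.02 on the log2 scale.

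The PFKFB enzymes make or break fructose 2,6-bisphosphate, the main activator of phosphofructokinase. Pfkfb3, the form with the highest kinase activity, was at 580, 470, 381 and 431 CPM in controls 1 to 4 and at 340, 281, 288 and 339 CPM in labelled knockouts 1 to 4. Every library of the labelled knockout lay below every control. The log2 fold change was -0.58 ± 0.13 (SE), a ratio of 0.671, with an adjusted p of 0.104 in edgeR. With DESeq2 it passed (adjusted p = 0.00643), as it did when the filter on low counts was dropped (adjusted p = 0.0329). The values without 1 library ran from 0.0596 to 0.297, and with the muscle marker score as a covariate the adjusted p was 0.447.

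Pfkfb1, the form of liver and muscle, was at 49.2, 45.2, 44.0 and 47.5 CPM in the control and at 33.7, 34.6, 36.8 and 37.8 CPM in the labelled knockout. The groups did not overlap and each was tight, with SDs of 2.33 and 1.89 CPM. Its log2 fold change of -0.38 ± 0.08 (SE) had an adjusted p of 0.0892, the lowest of the set in edgeR, and passed in DESeq2 (adjusted p = 0.00999). In fits without 1 library the adjusted p was 0.0726 to 0.243. Some exon bases of Pfkfb1 overlap those of Apex2 on the opposite strand. Pfkfb2 and Pfkfb4 were low, at 11.0 ± 0.363 and 10.8 ± 2.49 CPM in the control and 11.0 ± 1.99 and 11.6 ± 1.90 CPM in the labelled knockout.

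Groups without overlap were about as frequent among the members as among all genes. Of the 42 tested, Pfkfb1 and Pfkfb3 were the 2 members that lay lower without overlap and Ppp1r3c the 1 that lay higher, where 3.89% and 4.01% of all genes tested did so (7.9% in either direction). Ppp1r3c encodes a subunit that targets protein phosphatase 1 to glycogen and promotes its synthesis. It was at 177, 167, 155 and 168 CPM in the control and at 188, 190, 218 and 183 CPM in the labelled knockout, a small step above the highest control. The log2 fold change was 0.22 ± 0.09 (SE) with an adjusted p of 0.266 in edgeR, and it was 0.22 with the muscle marker score as a covariate.

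Among the other glycogen genes Ugp2, which makes the UDP-glucose that glycogen synthase uses, was at 273, 468, 396 and 357 CPM in the control and at 554, 650, 715 and 399 CPM in the labelled knockout. Its library order was close to that of the muscle isoforms, with control 1 lowest and labelled knockout 4 in the control range. Between the groups its log2 fold change was 0.63 ± 0.19 (SE), with an adjusted p of 0.18 in edgeR and 0.0478 in DESeq2. It was 0.18 with the muscle marker score as a covariate. Ugp2 falls outside the naming rule and was chosen after its values were seen. Some of its exon bases overlap Gm12043 on the opposite strand. Gys1, the muscle form of glycogen synthase, stood at 318 ± 34.0 and 314 ± 37.7 CPM, and Gys2, the liver form, at 120 ± 25.6 and 88.9 ± 20.2 CPM in control and labelled knockout. Gys1 is counted among the other entries, with a log2 fold change of -0.02. With Gys1, Ldha (-0.21) and both Aldoa entries (0.13 and 1.63) added, the muscle-type median was 0.59 and that of the rest -0.15. Gys1 exceeded Gys2 by 1.10 to 2.60 times per exon length, without a difference between the groups beyond the spread (exact permutation p = 0.229). The branching enzyme gene Gbe1 was at 298 ± 56.6 and 268 ± 41.5 CPM.

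Further down glycolysis the most abundant member per exon length was Aldoa, the main aldolase of muscle and many other tissues, at 1804 ± 285 RPKM over the 8 libraries (SD). It was at 5013 ± 647 CPM in the control and 5487 ± 1017 CPM in the labelled knockout, with an adjusted p of 0.729 in edgeR. The second Aldoa ID (ENSMUSG00000114515) lies 38 bases upstream of the first on chromosome 7 and held 2 to 28 counts per library, with an adjusted p of 0.255. Aldoc, the brain form, had 0.435 ± 0.139 CPM in the control and 0.428 ± 0.258 CPM in the labelled knockout and was not tested. Next in order stood Ldhb at 616 ± 43.1 RPKM and Ldha at 551 ± 77.1 RPKM, the subunits of lactate dehydrogenase, which did not differ beyond their spread. Eno1 (445 ± 109 RPKM), Pkm (427 ± 54.7 RPKM), the pyruvate kinase gene, and Pdha1 (409 ± 62.6 RPKM) followed and overlapped each other. Ldha was at 1955 ± 238 CPM in the control and 1690 ± 220 CPM in the labelled knockout, Ldhb at 940 ± 19.6 and 995 ± 91.1 CPM, and Pkm at 2243 ± 326 and 2032 ± 195 CPM. The ratio of Ldha to Ldhb per exon length was 0.812 to 1.08 in the control and 0.681 to 0.988 in the labelled knockout. Its exact permutation p was 0.0571 (adjusted p = 0.143 over the 10 ratios). Of the 50-base stretches, 21% of Ldhb, 9.26% of Ldha and 25.8% of Pkm occur in other genes' transcripts, so these levels are uncertain.

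The remaining steps of glycolysis did not pass either. Tpi1, the triose phosphate isomerase gene, was at 776 ± 89.3 CPM in the control and 746 ± 16.3 CPM in the labelled knockout, and Gpi1, the glucose phosphate isomerase gene, at 1159 ± 165 and 1207 ± 323 CPM. Pgk1, the first step of the route that yields ATP, was at 858 ± 99.0 and 733 ± 67.1 CPM (adjusted p = 0.364 in edgeR), and 53.9% of its 50-base stretches occur in other genes' transcripts. Gapdh stood at 27.3 ± 3.5 RPKM over the 8 libraries, below Tpi1 and Pgk1. Transcripts of 223 other genes share 50-base stretches with Gapdh, and the sources used here do not give how reads that fit several places were counted. Its level is therefore uncertain. In all, 6 of the 43 entries share more than 20% of their 50-base stretches with other genes.

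At the entry to the mitochondria, the pyruvate dehydrogenase subunit genes Pdha1, Pdhb and Dlat and the kinase genes Pdk1 and Pdk2 all had log2 fold changes below 0, and the phosphatase gene Pdp1 lay above 0. None of the 6 passed, and their adjusted p ran from 0.325 to 0.704. Pdha1 was at 1659 ± 227 CPM in the control and 1395 ± 171 CPM in the labelled knockout, and Pdk1, a kinase that switches the complex off, at 105 ± 18.6 and 83.1 ± 14.9 CPM. Pdk2, a further kinase, was at 340 ± 32.8 and 313 ± 36.5 CPM, and Pdp1, which switches the complex on, at 10.6 ± 2.65 and 12.2 ± 1.34 CPM. Pdhb was at 953 ± 106 and 858 ± 155 CPM, and Dlat, the core acetyltransferase gene, at 698 ± 129 and 626 ± 136 CPM.

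The 4 pentose phosphate genes had log2 fold changes below 0, and none passed. Tkt, which encodes transketolase, was at 2511, 1353, 1725 and 2339 CPM in controls 1 to 4 and at 2250, 824, 1394 and 2658 CPM in labelled knockouts 1 to 4. Its lowest and highest libraries both belonged to the labelled knockout and differed 3.23-fold. Taldo1, the transaldolase gene, was at 967, 629, 713 and 853 CPM against 607, 420, 498 and 753 CPM, with an adjusted p of 0.272 in edgeR, and Pgd, which makes NADPH, spanned 440 to 740 CPM in the control and 321 to 714 CPM in the labelled knockout. G6pdx, the entry enzyme of the route, was at 207 ± 48.9 and 198 ± 35.9 CPM. The adjusted p of the 4 genes ran from 0.272 to 0.898.

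No single order of libraries ran through the members outside the muscle group, though control 1 and labelled knockout 2 were most often at an extreme. Of the 38 other entries tested, control 1 was the highest library in 17 and labelled knockout 2 the lowest in 18. Labelled knockout 4 was highest in 7 and control 4 in 6. The same counts over all genes were not made. Labelled knockouts 2 and 4 stood far apart within 1 group for genes such as Tkt, Pgd and Pygl. With the muscle marker score as a covariate the median of these entries was 0.10, above 0, and 21 of the 38 lay above 0, so the direction of the group as a whole turned with that term.

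**Figure D4:**
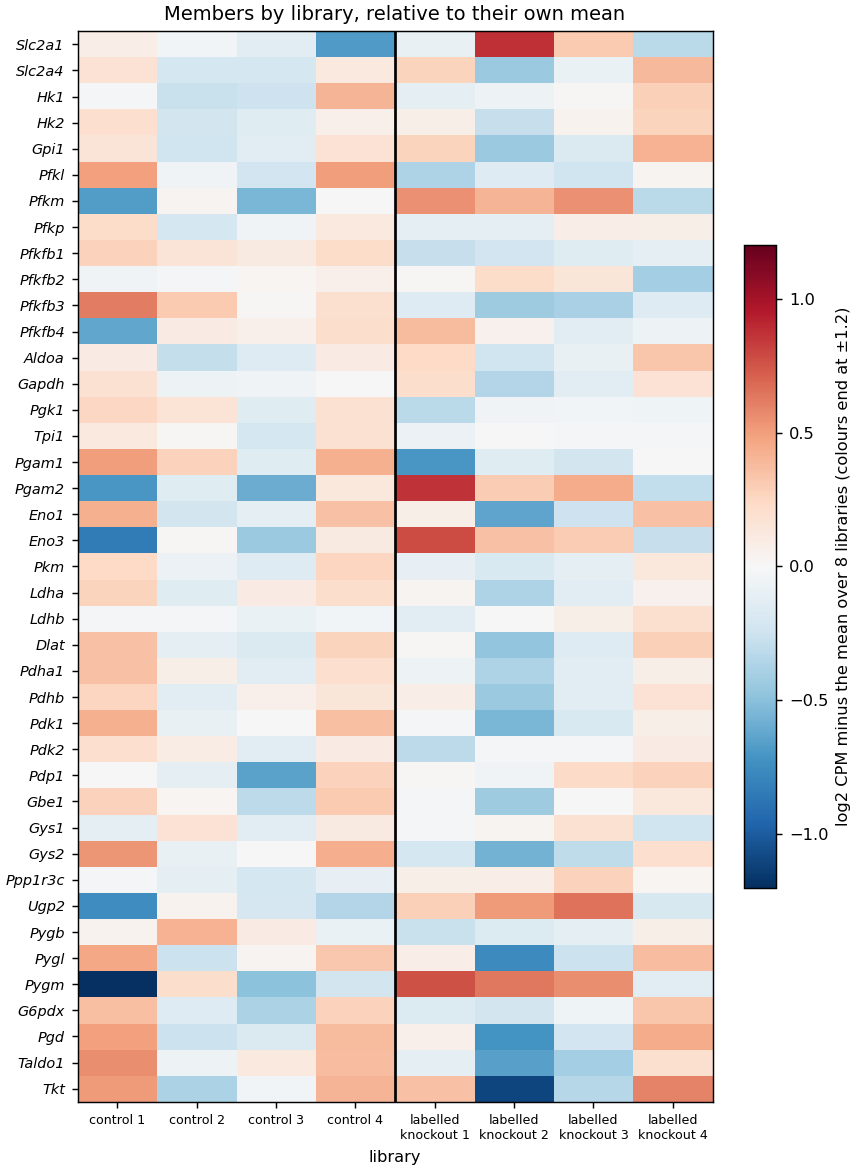
Colour shows log2 CPM of each member minus its own mean over the 8 libraries (rows are genes by step, columns are libraries; red is above and blue below the mean; the second Aldoa entry is left out). Pfkm, Pgam2, Eno3, Pygm and Ugp2 are blue in control 1 and red in labelled knockouts 1 to 3, while Tkt, Pgd, Taldo1 and Pygl are red in control 1 and deep blue in labelled knockout 2.

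The 2 enzymes that run against phosphofructokinase did pass. Of 63 other genes of glucose and glycogen handling, 53 were tested, and Fbp1 and Fbp2 rose in the labelled knockout. They make up 2 called higher of 53, where 0.291% of all genes tested were called higher. In edgeR 0 of 53 were called lower (5 lower at an unadjusted p under 0.05, 0 in DESeq2 and limma-voom). This list was drawn up with earlier results of these data known, so setting its share beside that of all genes is no test. Fbp1 and Fbp2 both encode fructose-1,6-bisphosphatase, which turns fructose 1,6-bisphosphate back into fructose 6-phosphate. Fbp1 is the form of liver and kidney and Fbp2 that of skeletal muscle.

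Fbp1 (ENSMUSG00000069805, chromosome 13, 62864753 to 62888282, minus strand) was at 2.69, 1.62, 2.69 and 4.48 CPM in controls 1 to 4 and at 33.3, 11.1, 14.2 and 18.4 CPM in labelled knockouts 1 to 4. Every library of the labelled knockout lay far above every control. The control values rest on 32 to 54 counts per library. Fbp1 rose 6.85-fold, or by 2.77 ± 0.38 (SE) on the log2 scale, and its adjusted p was 0.0101 in edgeR. Leaving out any 1 of the 8 libraries kept the call, with log2 fold changes from 2.37 to 3.07, as did the fit with the muscle marker score as a covariate (adjusted p = 0.0446). With robust dispersion the adjusted p was 0.0512.

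Fbp2 (ENSMUSG00000021456, chromosome 13, 62836877 to 62858422, minus strand) was at 68.8, 67.0, 65.8 and 70.4 CPM in the control, a narrow range, and at 123, 90.1, 112 and 135 CPM in the labelled knockout. All 4 libraries of the labelled knockout lay higher, and the highest was labelled knockout 4. Fbp2 rose 1.69-fold, or by 0.76 ± 0.12 (SE) on the log2 scale, and its adjusted p was 0.0183 in edgeR. The log2 fold change was 0.87 with the muscle marker score as a covariate (adjusted p = 0.0284). Score and genotype vary partly together, and the part of muscle RNA in the rise of Fbp2 was not tested. In fits without 1 library Fbp2 kept the call 3 times of 8. It was lost without control 1, 2 or 4 and without labelled knockout 1 or 3, with adjusted p from 0.0524 to 0.0781 and log2 fold changes from 0.72 to 0.78.

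Fbp1 and Fbp2 are neighbours on the same strand, 6330 bases apart, and share no 50-base stretch with any other annotated transcript. Their upstream sequences are shown because these are the genes of the pathway that passed, with capitals as above.
Fbp1, chr13:62888283-62888532, minus strand: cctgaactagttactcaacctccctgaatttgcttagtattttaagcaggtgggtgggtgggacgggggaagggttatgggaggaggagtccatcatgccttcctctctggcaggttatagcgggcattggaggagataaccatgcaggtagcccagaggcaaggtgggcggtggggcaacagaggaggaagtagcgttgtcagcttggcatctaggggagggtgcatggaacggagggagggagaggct
Fbp2, chr13:62858401-62858650, minus strand: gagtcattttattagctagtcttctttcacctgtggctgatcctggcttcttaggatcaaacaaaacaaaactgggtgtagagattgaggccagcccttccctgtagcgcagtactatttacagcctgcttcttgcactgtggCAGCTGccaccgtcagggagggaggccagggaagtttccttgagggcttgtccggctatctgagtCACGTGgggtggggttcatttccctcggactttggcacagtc
The window of Fbp2 held 1 CAGCTG and a CACGTG, which matches ACGTG on both strands, and that of Fbp1 held neither. The RefSeq start of Fbp2 also lies inside the gene as annotated, but both matches are upstream of it. Macrophage markers (8 genes, all above 0 and none called, with none at 0 in any library) summed to 95.7 to 136 CPM in the control and to 169, 162, 132 and 97.0 CPM in labelled knockouts 1 to 4. Of the 8, 2 (Cd68 and Mpeg1) were higher at an unadjusted p under 0.05 in edgeR, against 8.05% of all genes tested. Labelled knockout 1 had the highest macrophage sum and the highest Fbp1, at 33.3 CPM. Labelled knockout 4 had macrophage markers at the control level beside Fbp1 at 18.4 CPM. The part of other cell types in the rise of Fbp1 was not tested.

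**Figure D5:**
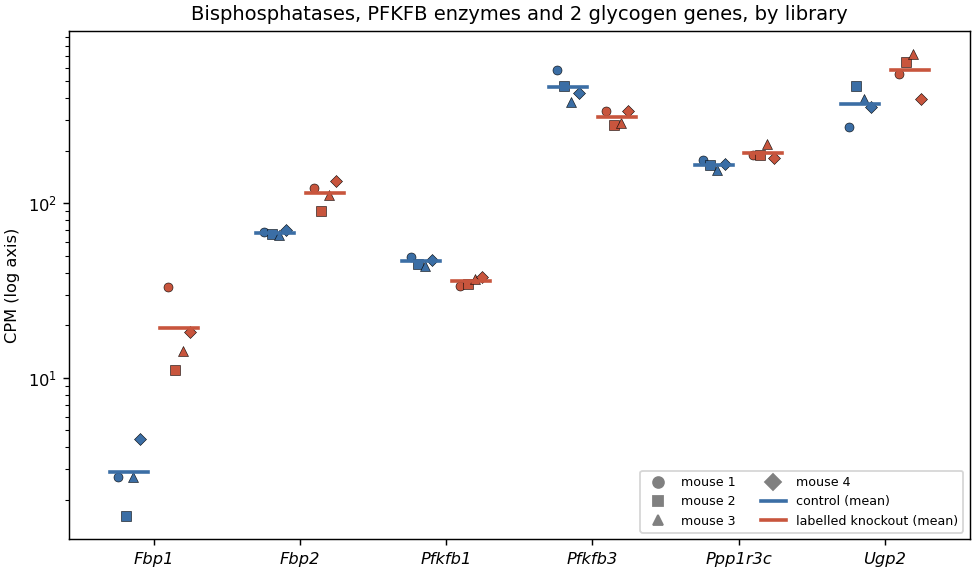
Level of 6 genes in CPM on a log axis, 1 point per library and 1 symbol per mouse, with lines at the arithmetic mean of 4 libraries. The groups do not overlap for Fbp1, Fbp2, Pfkfb1, Pfkfb3 and Ppp1r3c, and they overlap for Ugp2.

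The next 4 of these other genes by p did not pass. Ppp1r3a, the muscle subunit that targets protein phosphatase 1 to glycogen, was at 24.5 ± 8.90 CPM in the control and 42.3 ± 9.79 CPM in the labelled knockout, with a log2 fold change of 0.78 ± 0.25 (SE). Ppp1r3d, a related subunit, was at 22.5 ± 3.64 and 17.1 ± 1.76 CPM, without overlap. Pdp2, a phosphatase that switches pyruvate dehydrogenase on, was at 103 ± 21.8 and 77.4 ± 10.7 CPM, and Bpgm, which makes 2,3-bisphosphoglycerate, at 40.3 ± 5.41 and 30.9 ± 5.54 CPM. Their log2 fold changes were -0.40, -0.41 and -0.38, and the adjusted p of the 4 ran from 0.203 to 0.263 in edgeR. With the muscle marker score as a covariate the log2 fold changes were 0.16 for Ppp1r3a, -0.17 for Ppp1r3d, -0.23 for Pdp2 and -0.40 for Bpgm. Bpgm is known from red cells, whose 5 markers summed to 684 to 1668 CPM in the control and 459 to 1507 CPM in the labelled knockout, all 5 below 0 and none called. Their part in the level of Bpgm was not tested.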

How the data were processed

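RNA was sequenced from interscapular brown fat of 8 mice, 4 per genotype, and the groups and mouse numbers were taken from the sample titles. Per the labels' protocols, the libraries were stranded mRNA libraries. Per the submitters' processing notes, the tools were featureCounts (Subread), HISAT2, SAMtools, Trimmomatic and FastQC, and the build was GRCm38. The sources used here do not give their versions and settings, the strand setting or the gene annotation. The authors deposited raw counts, in whole numbers, for each gene.

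CPM were derived with edgeR's TMM factors and divided by exon length for RPKM. Exon length is that of all annotated exons of a gene merged. Genes were filtered with filterByExpr and tested over the whole table in edgeR 4.0.16 (R 4.3.3) by its quasi-likelihood test with genotype as the term. Adjusted p-values follow Benjamini-Hochberg, with calls below 0.05. SEs are the size of the log2 fold change over the root of the F statistic. DESeq2 1.42.0 and limma 3.58.1 were alternatives. Ratios used log2 of the count plus 0.5 and exact permutation tests. The muscle marker score is the mean log2 CPM of 20 genes with a prior count of 2. Positions, exon lengths, overlaps and shared 50-base stretches came from GENCODE mouse release M21, on the same build, and upstream sequences from RefSeq. Release M21 may not be the one used for counting. The scripts were tested on simulated data.

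The members and gene lists were chosen with earlier results of these data known. Values per library are given for members past the threshold or without overlap, for the muscle-type members and for the other isoforms of their steps, and of the other pathway genes the 6 with the smallest p are named. Values per library of Ugp2 and the pentose phosphate genes fall outside this rule and were chosen after they were seen. The labels call the 8 samples separate mice. Same-numbered mice of the 2 groups were checked for shared deviations.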

Additional observations from a re-analysis of the deposited data

Results flagged for a closer look

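In groups of 4 libraries, a library was taken to stand apart when its gap to the nearest other, divided by the range of the group, exceeded Dixon's 95% critical value. Of 110 groups examined 3 met this, and chance gives about 1 in 20. Labelled knockout 1 had Pgk1 at 632.6 CPM, where the other libraries of its group were at 762 to 769 CPM, and reads of this gene can be shared with other copies. Control 1 had a log2 ratio of Pgam2 to Pgam1 of -2.876, where the other controls were between -2.12 and -1.97. Labelled knockout 4 had a skeletal muscle marker score of 8.707, where the other libraries of its group were between 9.54 and 9.63.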

How the results depend on the processing

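Of 595 values under alternatives, 560 were counted as unchanged. Genes and ratios had to keep their direction and side of the threshold. Medians had to stay within the median SE of the members (0.16), and counts near their main value. Most of the 595 belong to genes or ratios not called in the main fit, and ratios without 1 library cannot pass. The 560 is therefore no measure of how firm the results are. With the muscle marker score as a covariate the median log2 fold change was 0.146 for the muscle-type members and turned to 0.099 for the others, and the log2 fold changes of Eno1, Pygl and Pfkp turned to 0.159, 0.166 and 0.125. Leaving out 1 library in turn, Pfkp ran from -0.13 to 0.021, turning without control 1. In the same way the log2 ratio difference of Hk2 to Hk1 ran from -0.136 to 0.053, turning to 0.052 without control 1, 0.016 without control 3 and 0.053 without labelled knockout 2, and that of Slc2a4 to Slc2a1 ran from -0.604 to 0.075, turning without labelled knockout 2. Leaving out 1 library in turn gave muscle-type medians of 0.496 to 0.812, 1 to 2 other pathway genes called and 0 members called. The number of members called was 3 in DESeq2 (1 higher, Ugp2, and 2 lower, Pfkfb1 and Pfkfb3) and 1, Pfkfb3 (lower), with no filter on low counts. Other pathway genes called were 1 with robust dispersion, where Fbp1 missed. The cause of these changes was not tested.

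Over all genes 53 were called, against 384 in DESeq2, 187 with no filter, 155 with the mouse number as a replicate block, 25 with the covariate and 24 to 75 without 1 library. With the replicate block 1 member was called, Pfkfb3 (lower, adjusted p = 0.0433). Deviations of same-numbered mice correlated at 0.02, 0.40, 0.03 and 0.17 (mice 1 to 4, across genes). Among labelled knockouts only mouse 2, and among controls only mice 2 and 4, correlated best with their own number. The numbers were not taken as pairs. Ratios of 3 against 4 libraries cannot give an exact p below 0.0571.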

Other observations

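The following genes of the glycogen and pyruvate steps were chosen after their values were seen and are no independent evidence on the isoforms. Phosphorylase kinase switches glycogen phosphorylase on, and its muscle subunit genes Phka1 and Phkg1 were at 55.7 ± 20.6 and 25.2 ± 9.54 CPM in the control and at 84.6 ± 20.9 and 40.8 ± 12.2 CPM in the labelled knockout. Their liver counterparts Phka2 and Phkg2 were at 28.0 ± 5.53 and 25.6 ± 1.82 CPM in the control and at 22.9 ± 1.07 and 25.9 ± 1.87 CPM in the labelled knockout. None of the 4 passed in edgeR, with adjusted p of 0.296, 0.263, 0.328 and 0.946. Pdk4, the kinase that spares pyruvate during fasting, was at 1931 ± 319 CPM in the control and 1500 ± 599 CPM in the labelled knockout (adjusted p = 0.498 in edgeR). The pyruvate carrier genes Mpc1 and Mpc2 were at 408 ± 61.7 and 873 ± 94.3 CPM in the control and at 358 ± 69.5 and 877 ± 136 CPM in the labelled knockout.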
